A study of Mus musculus with 12 samples.

Results

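Pericytes and vascular smooth muscle cells are together called mural cells, and their genes were followed here in sorted sensory neurons of the trigeminal ganglion (TG) of the mouse. The 10 genes, out of 22609 gene symbols counted, were taken by name as markers of these cells. No measured value enters the rule, but the list was drawn up when results of these data were already known. They are Acta2, Tagln, Myh11, Cnn1, Mylk and Des, which code for contractile or filament proteins, and Pdgfrb, Notch3, Abcc9 and Rgs5, which code for 2 receptors, a channel subunit and a regulator of G protein signaling. All 10 had reads, and 10 of 10 were among the 13835 genes that passed the filter on low counts.

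Mural cells wrap the endothelial tube of blood vessels. Endothelial cells recruit them by releasing PDGF-B, which binds the receptor coded by Pdgfrb, and Notch ligands on the endothelium act through Notch3 to keep arterial smooth muscle differentiated. Smooth muscle cells around arterioles carry much alpha actin, smooth muscle myosin and their partners, whereas pericytes of capillaries carry little of these and are known by Pdgfrb, Rgs5 and a potassium channel that senses ATP, which Abcc9 helps to form. The genes of the contractile apparatus share a control element, the CArG box, to which serum response factor (Srf) binds together with myocardin. None of these genes is a marker of sensory neurons, and some of them, such as Pdgfrb and Tagln, are also used by fibroblasts.

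Lingual neurons were labeled from the tongue with wheat germ agglutinin (WGA) coupled to a green dye on day 13, and labeled TG cells were flow-sorted on day 15 from Balb/c athymic nude mice, an immunodeficient strain that lacks mature T cells, 6 to 8 weeks old by the methods of the study. The groups, with 3 samples each, were normal males (MN), males with a tongue tumor (MT), normal females (FN) and females with a tongue tumor (FT). The tumor was grown in the tongue from 350000 injected HSC3 cells, an oral carcinoma cell line of human origin. The labels state that normal mice received no cells, whereas the methods give them a human oral keratinocyte line, and this was not settled here. The labels also give the WGA as 0.5%, whereas the methods give 1%, which was not settled either. A normal sample pooled 4 ganglia of 2 mice and a tumor sample pooled 4 ganglia of 4 mice from the tumor side, so each sample is a mixture of animals and the normal and tumor groups differ in how many. The gate selected bright WGA cells, and the methods name no gate that picked or removed vessel cells. Bulk RNA was sequenced, so for every value below, fewer cells of a type and less RNA per cell cannot be told apart. P-values measure only the spread between these pooled samples.

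Each library held 4592891 to 8922011 reads on genes, without molecular identifiers. Neuron markers were abundant in all 12 libraries, with 18 genes summing to 23260 to 34270 CPM (counts per 1000000 reads on genes). The libraries FN replicate 2, FT replicate 2 and FT replicate 3 stood apart: 52.58% to 68.4% of their reads mapped to several places, against 42.96% to 45.47% in the other 9, and their highest rank correlation with any other library was 0.8984 to 0.9618, against at least 0.9871. Each comparison is therefore given over 12 libraries and again over the 9 others, in which FT has 1 library that is assumed to vary like the rest. That choice was made after the data were seen.

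The upstream sequences are shown for the 1 member with a match to the CArG box, Acta2, and, as genes picked after the search for comparison, for Myl9, another contractile gene, and for Srf itself. RefSeq promoter windows of build GRCm38.p6, from 250 bases before to 50 bases after each start, matched 7 of 10 members by symbol, namely Acta2, Rgs5, Des, Cnn1, Abcc9, Mylk and Notch3. The exact box, CC then 6 bases of A or T then GG, occurred in 0 of these 7 and in 535 (1.63%) of all 32851 windows. A looser search allowed 1 G or C among the 6 inner bases (CCNNNNNNGG with at least 5 inner bases A or T) and was chosen after the exact search. The pattern reads the same on both strands. It matched Acta2 and 3280 (9.98%) of all windows. Each stretch holds the 180 bases before the start, with the matches in capitals.
Acta2, chr19:34255374-34255553, minus strand: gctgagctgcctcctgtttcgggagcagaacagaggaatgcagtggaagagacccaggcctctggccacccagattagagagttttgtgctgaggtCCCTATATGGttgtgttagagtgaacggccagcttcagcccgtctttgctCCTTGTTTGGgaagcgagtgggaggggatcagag
Myl9, chr2:156775284-156775463, plus strand: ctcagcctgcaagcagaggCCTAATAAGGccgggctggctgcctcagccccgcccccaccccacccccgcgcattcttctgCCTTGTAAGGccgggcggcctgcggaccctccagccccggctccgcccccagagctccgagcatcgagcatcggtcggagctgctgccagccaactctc
Srf, chr17:46556163-46556342, minus strand: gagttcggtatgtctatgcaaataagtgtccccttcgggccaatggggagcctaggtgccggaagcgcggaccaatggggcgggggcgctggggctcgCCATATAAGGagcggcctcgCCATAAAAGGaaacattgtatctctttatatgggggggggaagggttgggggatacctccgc
The matches in Acta2 began 84 and 34 bases before the start, those in Myl9 161 and 99 bases, and those in Srf 82 and 62 bases. Both matches in Srf and 1 of those in Myl9 were exact boxes. Of 12 further contractile genes 11 had a window, and Myl9 was the only 1 with a match. Of 10 mural cell regulators 5 had a window, and Srf was the only 1 with a match. The core TGGGAA, which the Notch effector Rbpj binds, occurred on either strand in 2 of 7 members, Acta2 and Abcc9, and in 25.6% of all windows. A match is a run of letters and no evidence of binding, and no match says only that the letters are not in the window.

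Per kilobase of exon, the smooth muscle genes Acta2 and Tagln were the most abundant of the 10. The mean RPKM, a CPM divided by the exon length in kilobases, over 12 libraries was 38.9 for Acta2, 17.4 for Tagln, 8.58 for Rgs5, 4.59 for Pdgfrb, 2.16 for Mylk, 1.81 for Myh11, 1.08 for Des, 0.817 for Cnn1, 0.723 for Notch3 and 0.246 for Abcc9. On the same scale the neuronal tubulin Tubb3 was at 2110 RPKM and the endothelial tight junction gene Cldn5 at 231 RPKM. The 10 members together made up 112.2 to 338.3 CPM in a library.

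Acta2 codes for alpha smooth muscle actin, the actin of the contractile filament (mm9, chromosome 19, 34315580 to 34329826, minus strand). In MN its level was 51.88, 18.16 and 36.03 CPM in replicates 1 to 3, and in MT it was 42.64, 39.04 and 108.78 CPM. FN had 77.18, 85.72 and 135.47 CPM, and FT had 101.78, 16.11 and 119.22 CPM. Every FN library was above every MN library, whereas the tumor groups reached across the range of the normal groups through a high MT replicate 3 and a low FT replicate 2. In order of mean level the groups were MN (35.4 ± 16.9 CPM, SD, n = 3), MT (63.5 ± 39.3), FT (79.0 ± 55.2) and FN (99.5 ± 31.5), and neighbors in that order overlapped. Of 1732 windows of 50 bases in its transcript, 7 were identical to a window in another coding gene, Actg1. Near matches and pseudogenes were not searched, so confusion of reads with other actins was not tested. The heart actin Actc1 was at 0 to 0.44 CPM and the enteric actin Actg2 at 0 to 3.01 CPM.

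Tagln codes for transgelin (SM22), which binds actin (chromosome 9, 45737711 to 45744141, minus strand, with 65 exonic bases shared with Pcsk7 on the other strand). MN had 22.78, 9.98 and 15.15 CPM and MT had 20.12, 14.45 and 42.84 CPM. FN had 38.72, 15.40 and 52.87 CPM and FT had 47.46, 17.64 and 34.44 CPM. Of the female libraries, FN replicate 2 and FT replicate 2 lay within the range of MN and the other 4 above it.

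Myh11 codes for the smooth muscle myosin heavy chain, the motor of the contractile filament (chromosome 16, 14194620 to 14291501, minus strand). It was at 8.72, 4.48 and 10.44 CPM in MN, 7.04, 8.75 and 23.09 CPM in MT, 14.58, 5.09 and 21.64 CPM in FN, and 21.95, 12.41 and 5.86 CPM in FT. Cnn1 codes for calponin, which damps the myosin ATPase (chromosome 9, 21903725 to 21914074, plus strand). It had 0 to 34 counts per library and 0 of 8922011 reads in MN replicate 2, where the floor of 3 counts allows up to 0.336 CPM by counting error alone. Its other levels were 0.84 and 1.26 CPM in MN, 1.01, 1.25 and 3.95 CPM in MT, 1.13, 1.30 and 4.66 CPM in FN, and 2.88, 0.87 and 4.04 CPM in FT. For both genes the spread within MT, FN and FT was wider than the differences between their means, and all compared groups overlapped.

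Mylk codes for the myosin light chain kinase that starts smooth muscle contraction (chromosome 16, 34745296 to 35002520, plus strand). It was at 18.14, 10.54 and 20.31 CPM in MN, 15.60, 15.42 and 42.23 CPM in MT, 37.46, 13.57 and 32.19 CPM in FN, and 30.86, 21.34 and 18.27 CPM in FT. Des codes for desmin, an intermediate filament of all muscle types (chromosome 1, 75356904 to 75365154, plus strand, sharing 220 exonic bases with Gm15179 on the minus strand). It was at 2.67, 0.56 and 4.25 CPM in MN, 2.64, 1.81 and 6.17 CPM in MT, 4.53, 1.17 and 6.44 CPM in FN, and 8.78, 3.48 and 6.0 CPM in FT. The 3 values of a group spread over several fold for Des in MN and FN, where replicate 2 was lowest both times. Skeletal muscle, which also carries Des, was represented at a low level: 10 of its markers summed to 9.302 to 33.92 CPM, mostly Acta1 at 4.65 to 27.79 CPM.

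Among the receptors, Pdgfrb, through which PDGF-B recruits mural cells, had nearly the same mean in every group (chromosome 18, 61204804 to 61244715, plus strand). It was at 23.48, 26.12 and 32.13 CPM in MN, 15.72, 25.01 and 31.49 CPM in MT, 27.03, 15.27 and 35.61 CPM in FN, and 37.17, 17.85 and 15.06 CPM in FT. Notch3, the Notch receptor of arterial smooth muscle, was lower (chromosome 17, 32257765 to 32303825, minus strand, overlapping 488 bases of the noncoding gene Gm17276). It was at 6.33, 3.59 and 6.54 CPM in MN, 3.02, 3.61 and 9.26 CPM in MT, 7.67, 1.30 and 5.20 CPM in FN, and 9.19, 6.10 and 7.95 CPM in FT. The means of the 4 groups lay between 23.4 and 27.2 CPM for Pdgfrb and between 4.73 and 7.75 CPM for Notch3.

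Rgs5 speeds up the shut-off of G protein signals and is a classical marker of brain pericytes (chromosome 1, 171585632 to 171625944, plus strand). In MN it was at 53.71, 37.32 and 52.67 CPM and in MT at 28.68, 27.09 and 34.70 CPM. FN had 58.70, 14.74 and 43.01 CPM, and FT had 52.26, 23.30 and 41.97 CPM. All 3 MT libraries lay below all 3 MN libraries, and the lowest female values were those of FN replicate 2 and FT replicate 2. Abcc9 codes for SUR2, which joins the potassium channel pore Kcnj8 in pericytes and smooth muscle (chromosome 6, 142536382 to 142650794, minus strand). It rested on 2 to 35 counts per library and was at 1.41, 1.46 and 2.41 CPM in MN, 0.88, 0.69 and 1.23 CPM in MT, 2.14, 1.96 and 1.23 CPM in FN, and 3.57, 0.44 and 4.88 CPM in FT. In CPM MT was again below MN in each library, although MN replicate 1 and MT replicate 3 had 10 reads each. FT held both the lowest and the highest value.

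**Figure D1:**
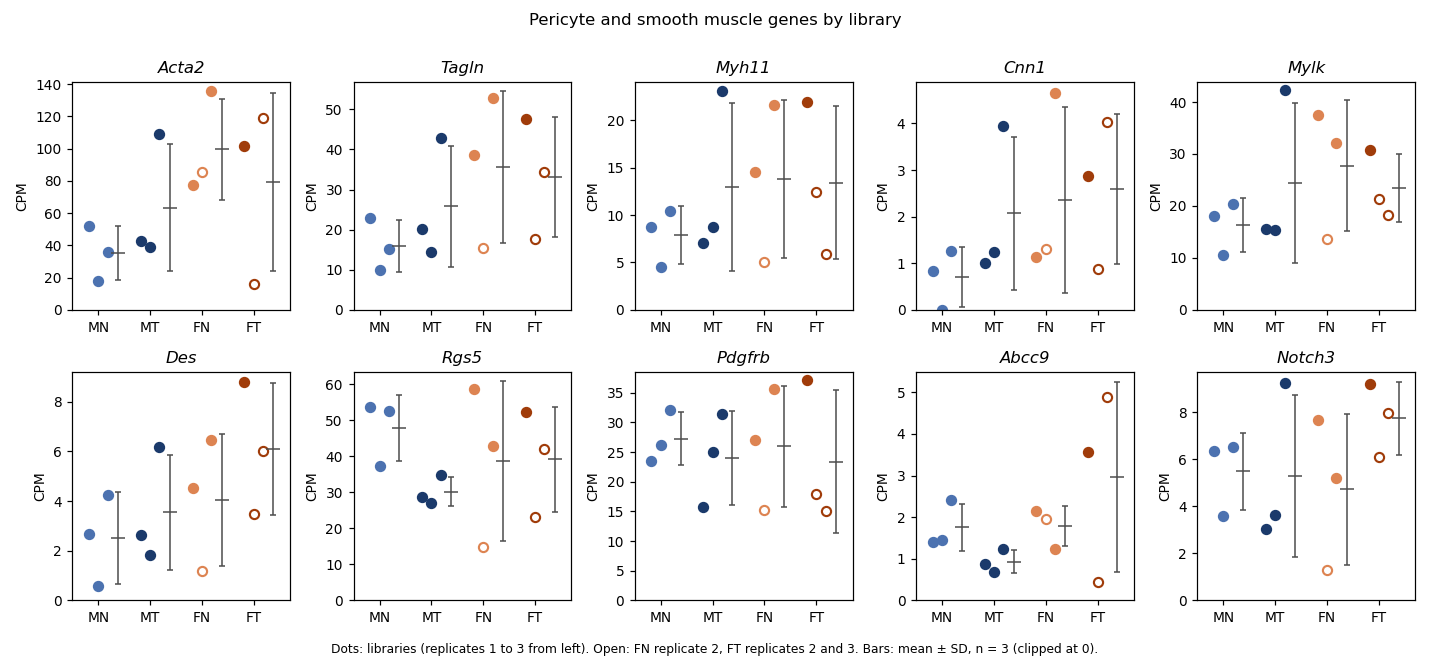
Level of each of the 10 genes in CPM (vertical axis) in the 3 libraries of MN, MT, FN and FT, with the mean and SD (n = 3) beside the dots and open circles for FN replicate 2, FT replicate 2 and FT replicate 3. The upper row and Des are contractile or filament genes. Acta2 was above every MN library in all 3 FN libraries, and Rgs5 and Abcc9 were below every MN library in all 3 MT libraries.

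Much of the variation lay between libraries of 1 group and moved several members at once. MT replicate 3 was the highest MT library for 10 of 10 members, and MN replicate 2 the lowest MN library for 8 of 10. FN replicate 2 and FT replicate 2 were each the lowest of their group for 7 of 10. The summed level of 14 endothelial markers was also highest within MT in replicate 3 (1852 CPM against 743.6 and 1212 CPM), lowest within MN in replicate 2 (619.6 CPM against 1055 and 1479 CPM) and lowest within FT in replicate 2 (361.4 CPM against 1564 and 1627 CPM). In FN the 3 sums were close together, at 1668 CPM in replicate 2 and 1938 and 1955 CPM in the others. The part of these differences between libraries in the comparisons below was not tested, apart from the fits without a library.

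FN against MN compares normal neurons of females and males. The contractile genes Acta2 and Tagln were higher in FN, by 3.00-fold and 2.29-fold in the fit, and the receptors, the channel subunit and Rgs5 were close to no difference. By the adjusted p of edgeR 0 of 10 members passed, as did 0 of the 13360 tested genes outside chromosomes X and Y (0.0%). At an unadjusted p under 0.05, 2 of 10 members were called, Acta2 and Tagln, against 5.57% of all genes, and these 2 also met the criteria of the study (unadjusted p under 0.05, fold over 1.5, mean RPKM over 5 in either group), against 3.69% of all genes. The edgeR log2 fold change of Acta2 was 1.59 ± 0.59 (SE, unadjusted p = 0.0179, adjusted p = 0.809), and its groups did not overlap, which held in this direction for 9.66% of all genes. That of Tagln was 1.19 ± 0.48 (edgeR unadjusted p = 0.0268, adjusted p = 0.809). Over the alternatives the adjusted p ran from 0.00741 to 1.0 for Acta2 and from 0.00386 to 1.0 for Tagln.

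All 6 contractile and filament members had a log2 fold change above 0 between FN and MN, which held for 54.3% of all genes. The fitted values were 0.83 for Myh11, 1.79 for Cnn1, 0.81 for Mylk and 0.72 for Des, with edgeR unadjusted p between 0.0729 and 0.314. Leaving out 1 library moved Cnn1 to between 0.97 (without FN replicate 3) and 2.56 (without MN replicate 3), Des to between 0.25 (without MN replicate 2) and 1.35 (without MN replicate 3), Myh11 to between 0.41 and 1.17 and Mylk to between 0.57 and 1.06. The median of the 6 was 1.01, against 0.068 over all genes. The other 4 members had a median of -0.10, with values of -0.28 for Rgs5, -0.01 for Pdgfrb, 0.13 for Abcc9 and -0.19 for Notch3. Each of these 4 signs turned when the libraries that stand apart were left out, with values of 0.04, 0.15, -0.11 and 0.19.

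Over the 9 libraries 4 of 10 members were called at an unadjusted p, against 15.2% of all genes, and 0 of 10 by the adjusted p of edgeR. The log2 fold changes were 1.55 ± 0.44 for Acta2 (edgeR adjusted p = 0.136), 1.48 ± 0.38 for Tagln (adjusted p = 0.11), 1.15 ± 0.44 for Myh11 (adjusted p = 0.249) and 1.05 ± 0.37 for Mylk (adjusted p = 0.214). With limma-voom and sample quality weights over 12 libraries, 4 of 10 members passed an adjusted p of 0.05, against 5.99% of all genes, with log2 fold changes of 1.60 for Acta2, 1.54 for Tagln, 1.17 for Myh11 and 1.14 for Mylk. The unadjusted calls also hung on single libraries. In the fits that leave out 1 library the share of all genes called was not counted. Without FN replicate 3 or without MN replicate 2 none of the members was called, without FN replicate 1 Acta2 alone was, without MN replicate 3 Acta2 and Cnn1 were, and without FN replicate 2 Mylk joined Acta2 and Tagln.

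**Figure D2:**
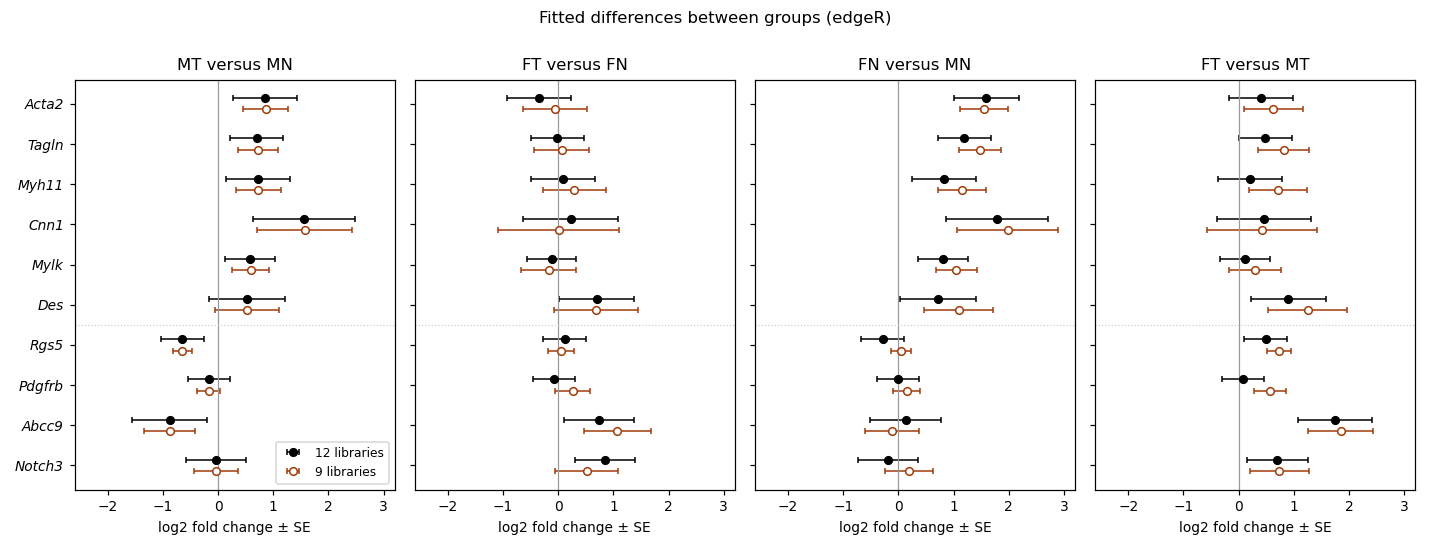
Log2 fold change ± SE from edgeR (horizontal axis) of each of the 10 genes in 4 comparisons, over 12 libraries (filled) and over the 9 that do not stand apart (open). The contractile and filament genes stand above the dotted line. In FN versus MN these 6 lie to the right of 0 in both fits and the 4 below the line lie near 0, and in MT versus MN Rgs5 and Abcc9 lie to the left.

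Other cell types moved in the same comparison, in which 5.57% of all genes passed an unadjusted p over 12 libraries and 15.2% over 9. All 14 endothelial markers had a log2 fold change above 0 between FN and MN, with a median of 0.65, and 2 of 14 passed an unadjusted p (12 of 14 over the 9 libraries). The summed endothelial level was 1668 to 1955 CPM in FN and 619.6 to 1479 CPM in MN, without overlap. The 12 macrophage markers had a median of 2.99 and 11 of 12 passed an unadjusted p. Their sums were 135.6 to 313.5 CPM in FN and 22.95 to 32.9 CPM in MN. For Csf1R and C1qa of this list, the paper reports staining in WGA-labeled neurons of females and far less in males. Which cells gave the reads of these markers was not tested. The 12 fibroblast markers summed to 394.1 to 1211 CPM in FN and 161.0 to 224.8 CPM in MN. Of 11 tested, 8 were above 0 with a median of 0.40, and 3 passed an unadjusted p. Satellite glia, which wrap the neurons of the ganglion, had the largest sum of the other cell types, 8818 to 17460 CPM in FN and 4859 to 5681 CPM in MN, again without overlap. Of its 9 markers tested 9 were above 0 and 2 passed an unadjusted p (8 and 7 over the 9 libraries). Of 18 neuron markers 10 were below 0 over 12 libraries and 16 over 9, where 8 passed an unadjusted p in that direction, and their sums overlapped, at 24030 to 34270 CPM in FN and 27540 to 28920 CPM in MN. Schwann cell markers were above 0 in 5 of 9, with 0 at an unadjusted p. The fibroblast sum rests mostly on Apod, with a mean of 293 CPM over 12 libraries where the sum had a mean of 497.5 CPM. The satellite glia sum rests mostly on Apoe, at 6430 CPM where the sum had a mean of 8580 CPM. Defining endothelial genes were well above 0 in every library, Cldn5 at 59.22 to 623.98 CPM. The part of these cell types in the difference of Acta2 and Tagln was not tested. The sum of the 10 members was 112.2 to 190.0 CPM in MN and 155.5 to 338.3 CPM in FN, and divided by the endothelial sum it was 0.122 to 0.181 and 0.0932 to 0.173. Both the sum and the ratio overlapped between the groups.

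**Figure D3:**
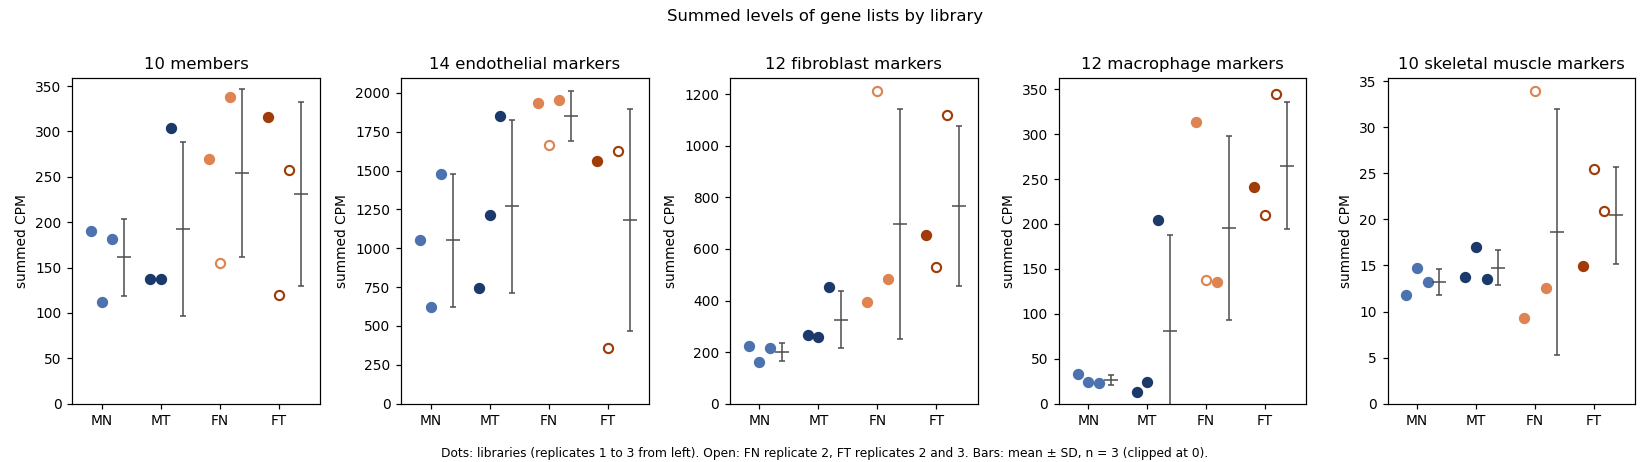
Summed level in CPM (vertical axis) of the 10 members and of endothelial, fibroblast, macrophage and skeletal muscle markers in each library of MN, MT, FN and FT, with mean and SD (n = 3) and open circles for FN replicate 2, FT replicate 2 and FT replicate 3. Endothelial sums of FN (1668 to 1955 CPM) lie above those of MN (619.6 to 1479 CPM), and FT replicate 2 has the lowest endothelial sum (361.4 CPM).

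Further genes of the contractile apparatus, from a list that leaves out the members, went the same way between FN and MN. Of 12 genes 11 were tested, and 10 had a log2 fold change above 0, against 54.3% of all genes. At an unadjusted p 5 passed, against 5.57% of all genes, and 0 passed the adjusted p of edgeR. The median was 1.13, against 0.068 over all genes. Myl9, the regulatory light chain that Mylk phosphorylates, was at 17.60 to 40.49 CPM in MN and 75.55 to 98.64 CPM in FN, without overlap. Its log2 fold change was 1.67 ± 0.44 (edgeR unadjusted p = 0.00194, adjusted p = 0.809). Cald1, the actin-binding caldesmon that many cell types carry, was at 16.25 to 23.87 CPM in MN and 36.71 to 69.28 CPM in FN, with a log2 fold change of 1.50 ± 0.44 (edgeR unadjusted p = 0.00426, adjusted p = 0.809). Kcnmb1, the beta subunit of the smooth muscle BK channel and the most abundant gene of the list, was an exception. It was at 88.30 to 95.61 CPM in MN and 63.97 to 124.73 CPM in FN. Its log2 fold change was 0.14 ± 0.40 over 12 libraries and turned to -0.39 ± 0.14 over the 9. Over the 9 libraries 12 genes of the list were tested, with 10 above 0, 2 below 0 and a median of 0.86.

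The further pericyte genes were counted in the same way, and the difference between the lists was not tested. Of 16 listed, 13 were tested, 7 had a log2 fold change above 0 between FN and MN and 1 passed an unadjusted p, with a median of 0.09. Under limma-voom 10 of the 13 were above 0 with a median of 0.40, and 4 passed an unadjusted p, against 21.1% of all genes. The sum of the pericyte list was 151.4 to 170.9 CPM in MN and 59.5 to 173.1 CPM in FN. This sum rests mostly on Mcam, with a mean of 90.5 CPM over 12 libraries where the sum had a mean of 150.9 CPM. The log2 fold change of Mcam between FN and MN was -0.53 ± 0.60 over 12 libraries and -0.10 ± 0.16 over 9. Of 10 transcription factors and cofactors of mural cells, among them Srf, Myocd and the cofactors Mkl1 and Mkl2, 9 were tested, 7 had a log2 fold change above 0 with a median of 0.92, and 0 passed an unadjusted p. Over the 9 libraries the median was 0.51. Under limma-voom 3 of the 9 genes passed an unadjusted p, against 21.1% of all genes, with a median of 0.43. Of 17 PDGF and Notch pathway genes 16 had a log2 fold change above 0, with a median of 0.45, and 3 passed an unadjusted p. Over the 9 libraries 4 of these 17 passed the adjusted p of edgeR, against 0.391% of all genes. They were Dll4, Notch1, Hes1 and Hey2, that is a ligand, a receptor and 2 target genes of the Notch pathway. In the contractile, pericyte, regulator and PDGF and Notch lists 11, 13, 9 and 17 genes were tested. Under limma-voom 13 genes of these 4 lists passed an adjusted p between FN and MN, against 5.99% of all genes. They were the contractile genes Myl9, Tpm2, Cald1, Synpo2 and Pln, the pericyte gene Gucy1b3, the cofactor Myocd, and Jag1, Dll4, Notch1, Hes1, Hey2 and Heyl of the Notch pathway. Notch1 was at 41.48 to 63.23 CPM in MN and 78.41 to 121.05 CPM in FN, with a log2 fold change of 1.01 ± 0.35 over 12 libraries (edgeR adjusted p = 0.809) and 1.02 ± 0.19 over 9 (edgeR adjusted p = 0.0443). Hes1 was at 21.09 to 27.68 CPM in MN and 45.76 to 87.29 CPM in FN, with 1.51 ± 0.77 over 12 libraries (edgeR adjusted p = 0.809) and 0.99 ± 0.17 over 9 (edgeR adjusted p = 0.0404).

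MT against MN compares tumor-bearing and normal males. Rgs5 and Abcc9 were lower in MT without overlap, by 1.57-fold and 1.84-fold in the fit, whereas contractile genes were higher in 1 MT library and close to MN in the others. By the adjusted p of edgeR 0 of 10 members passed (0.0% of 13835 genes did), and 0 of 10 passed an unadjusted p under 0.05 (0.426% of genes did). The groups were separate in the lower direction for 2 of 10 members, against 7.32% of all genes. The closest Abcc9 libraries, MN replicate 1 and MT replicate 3, had 10 reads each and were separate by library size alone (1.41 and 1.23 CPM). The log2 fold change of Rgs5 was -0.65 ± 0.39 (edgeR unadjusted p = 0.116, adjusted p = 1.0) and that of Abcc9 was -0.88 ± 0.68 (edgeR unadjusted p = 0.214, adjusted p = 1.0). Pdgfrb, at -0.17, and Notch3, at -0.04, differed by less than their errors of 0.38 and 0.55.

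The fit of 9 libraries holds the same 6 male libraries, so its value for Rgs5, -0.65, is no separate check, and the error, which is pooled over all groups, was 0.17 (edgeR unadjusted p = 0.0021, adjusted p = 0.298). There 1 of 10 members passed an unadjusted p, against 7.25% of all genes, and met the criteria of the study, against 0.873%. In the 5 male libraries that remain when MT replicate 3 is left out, a choice made after the data were seen, Rgs5 was at -0.73 ± 0.17 (edgeR unadjusted p = 0.000702, adjusted p = 0.106) and was the only 1 of 9 members tested with an unadjusted p under 0.05, against 11.5% of all genes. Over the alternatives the log2 fold change of Rgs5 ran from -0.80 to -0.56 and its adjusted p from 0.0637 to 1.0.

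The contractile and filament members had log2 fold changes of 0.85 for Acta2, 0.70 for Tagln, 0.72 for Myh11, 1.56 for Cnn1, 0.58 for Mylk and 0.52 for Des between MT and MN. All 6 were above 0, as were 51.2% of all genes, and the edgeR unadjusted p lay between 0.115 and 0.466. Their median was 0.71 and that of all genes 0.007. MT replicate 3 decided these values: in the 5 male libraries Acta2 was at 0.27, Tagln at 0.18, Myh11 at 0.05, Mylk at -0.03 and Des at -0.10, and Cnn1 was not tested. The median over the members tested went from 0.55 to -0.10. MT replicate 3 also had the highest level of macrophage markers of the male libraries (204.2 CPM against 13.33 to 32.9 CPM) and the highest male sums of endothelial (1852 CPM) and fibroblast markers (453.5 CPM). The part of these in the level of the contractile genes was not tested.

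The ratio of the contractile genes to the rest of the members was lower in MN than in the other groups. This was noticed after the values were seen and is given without a test. The CPM of the 6 contractile and filament members divided by that of the other 4 was 1.24, 0.638 and 0.933 in MN and 1.84, 1.43 and 2.96 in MT. It was 1.82, 3.67 and 2.98 in FN and 2.09, 1.51 and 2.69 in FT. All 9 libraries of MT, FN and FT were above all 3 of MN. Acta2 over Rgs5 was 0.966, 0.486 and 0.684 in MN and 1.49, 1.44 and 3.14 in MT. In the female libraries it was 1.31, 5.81 and 3.15 in FN and 1.95, 0.692 and 2.84 in FT, where FT replicate 2 fell among the MN values.

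**Figure D4:**
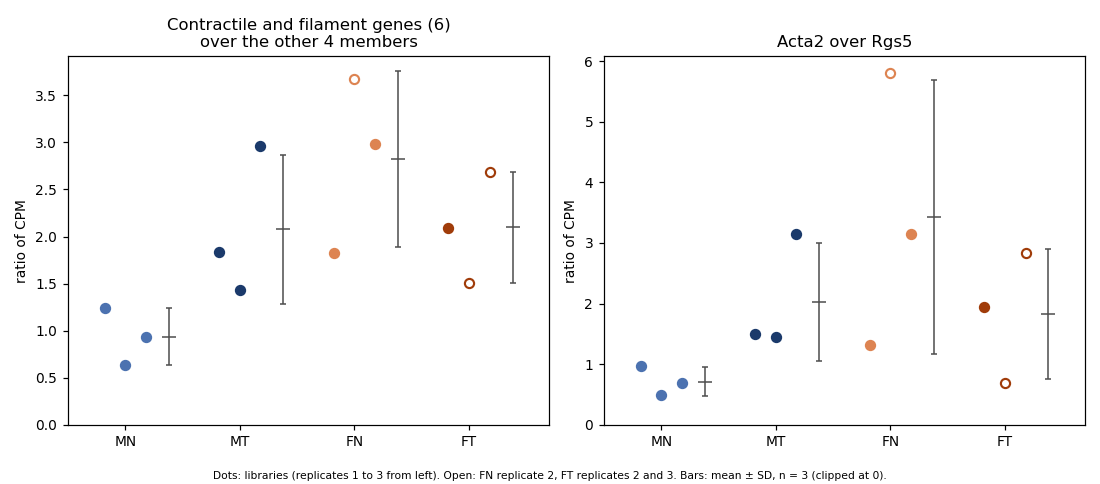
Ratio of summed CPM of the 6 contractile and filament genes to the other 4 members (left) and of Acta2 to Rgs5 (right) in each library, with mean and SD (n = 3) and open circles for FN replicate 2, FT replicate 2 and FT replicate 3. The left ratio is 0.638 to 1.24 in MN and 1.43 to 3.67 in the other groups, and the right ratio is 0.486 to 0.966 in MN.

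FT against FN compares tumor-bearing and normal females. Here the members were scattered in both directions and none was separate between the groups. By the adjusted p of edgeR 0 of 10 passed (0.0% of 13835 genes did) and 0 of 10 passed an unadjusted p (3.82% did). The largest values were 0.85 ± 0.55 for Notch3 (edgeR unadjusted p = 0.147, adjusted p = 0.994), 0.74 ± 0.64 for Abcc9 and 0.70 ± 0.68 for Des on the log2 scale. Acta2 was at -0.34 ± 0.58 and the other 6 between -0.12 and 0.23. The errors of the 10 values were 0.38 to 0.86. Over the 9 libraries, with 1 FT library, again 0 of 10 passed an unadjusted p, against 4.66% of all genes. Leaving out FT replicate 2, in which Abcc9 had 2 counts, gave 1 of 10 members an unadjusted p under 0.05, Abcc9. The share of all genes called in that fit was not counted.

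Of the 16 further pericyte genes 13 were tested between FT and FN. Of these, 7 had a log2 fold change above 0. At an unadjusted p 4 passed, against 3.82% of all genes, and 0 passed the adjusted p of edgeR. The criteria of the study were met by 2, against 2.18% of all genes. The 4 genes, named after their values were seen, were Kcnj8, Vtn, Higd1b and Cspg4. Kcnj8, the pore partner of Abcc9, was at 5.49, 0.87 and 13.66 CPM in FT and at 1.37 to 2.74 CPM in FN, with a log2 fold change of 1.60 ± 0.71 (edgeR unadjusted p = 0.0409, adjusted p = 0.994). Vtn, the matrix protein vitronectin, was at 22.36, 1.09 and 21.47 CPM in FT and 3.7 to 4.78 CPM in FN, with 1.8 ± 0.70 (edgeR unadjusted p = 0.0221, adjusted p = 0.994). In both, FT replicates 1 and 3 were above FN and FT replicate 2 below it. Higd1b, a mitochondrial gene used as a pericyte marker, was at 2.61, 19.16 and 9.62 CPM in FT and 0.78 to 2.14 CPM in FN, with 3.08 ± 0.85 (edgeR unadjusted p = 0.00264, adjusted p = 0.994). Cspg4, which codes for the pericyte proteoglycan NG2 and is also used by glial precursors, was at 4.66, 28.09 and 3.76 CPM in FT and 2.87 to 5.07 CPM in FN, with 1.83 ± 0.73 (edgeR unadjusted p = 0.024, adjusted p = 0.994). The last 2 were highest in FT replicate 2, and without the libraries that stand apart Higd1b was at 0.57, Cspg4 at 0.01, Kcnj8 at 1.54 and Vtn at 2.40. Leaving out 1 library gave 0.52 (without FT replicate 3) to 2.08 for Kcnj8, 1.41 to 2.33 for Vtn, 2.10 to 3.58 for Higd1b and 0.01 (without FT replicate 2) to 2.29 for Cspg4. With the replicate number as a block 1 of the 13 passed an unadjusted p. Endothelial markers went the other way, with 13 of 14 below 0 and a median of -0.74, and their sum in FT (361.4 to 1627 CPM) lay below that in FN.

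FT against MT compares tumor-bearing females and males. All 10 members had a log2 fold change above 0, as had 54.1% of all genes, and 1 of 10 passed an unadjusted p under 0.05, against 12.1% of all genes. By the adjusted p of edgeR 0 of 10 passed (0.0%). The called gene was Abcc9, with a log2 fold change of 1.75 ± 0.67 (edgeR unadjusted p = 0.0211, adjusted p = 0.347), higher in 2 of 3 FT libraries than in any MT library and lowest of all in the third. Rgs5 was at 0.49 ± 0.39, Notch3 at 0.70 ± 0.55, Des at 0.90 ± 0.68 and Acta2 at 0.40 ± 0.58, and the others lay between 0.08 and 0.48. Over the 9 libraries, with 1 FT library, 2 of 10 passed an unadjusted p, against 8.27% of all genes: Abcc9 was at 1.85 ± 0.59 (edgeR adjusted p = 0.462) and Rgs5 at 0.73 ± 0.22 (edgeR adjusted p = 0.452). The call of Abcc9 was lost without FT replicate 3, without MT replicate 1 and without MT replicate 2. Without MT replicate 3 Notch3 was called as well. The share of all genes called in these fits was not counted. The counts behind the call of Abcc9 were 5 to 10 reads in each MT library. Other cell types moved as well between FT and MT. The macrophage markers were above 0 in 12 of 12, with a median of 1.93 and 5 at an unadjusted p, and summed to 209.5 to 344.1 CPM in FT and 13.33 to 204.2 CPM in MT. Satellite glia had a median of 1.27 with 6 of 9 at an unadjusted p, and sums of 7182 to 18910 CPM in FT and 4231 to 5410 CPM in MT. Fibroblast markers were above 0 in 9 of 11 and Schwann cell markers in 8 of 9, with 4 and 2 at an unadjusted p, whereas endothelial markers were above 0 in 5 of 14 with 0 at an unadjusted p. The part of these cell types in the values of the members was not tested. By the adjusted p of DESeq2 over 12 libraries, 7 genes of the pericyte, regulator and PDGF and Notch lists passed between FT and MT. These lists hold 16, 10 and 17 genes, and 1.73% of all genes passed. The 7 were Higd1b, Vtn, Tbx2, Notch1, Notch2, Hes1 and Nrarp, and with edgeR and limma-voom 0 of them did. The edgeR log2 fold change of Hes1 was 2.87 over 12 libraries and -0.02 over 9. That of Notch1 was 1.29 and 1.17. Values of the others over 9 libraries are not given here.

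The tumor effect was compared between the sexes by the interaction term. By the adjusted p of edgeR 0 of 10 members passed (0.0% of 13835 genes did), and 0 of 10 passed an unadjusted p (1.47% did). The difference, female minus male, was 0.77 ± 0.55 for Rgs5, 1.62 ± 0.93 for Abcc9 and -1.19 ± 0.82 for Acta2 on the log2 scale. For the 6 contractile and filament members the median was -0.71, for the other 4 it was 0.83 and for all genes -0.073. Over the 9 libraries Rgs5 was at 0.69 ± 0.29 (edgeR unadjusted p = 0.0349, adjusted p = 0.959) and Abcc9 at 1.96 ± 0.77 (edgeR unadjusted p = 0.0268, adjusted p = 0.959), 2 of 10 members against 5.1% of all genes. The comparisons share their libraries, so the MT values enter MT versus MN, FT versus MT and this term alike. In FN versus MN DESeq2 called 0 of 10 members by its adjusted p, and in the other 3 comparisons and this term DESeq2 and limma-voom both called 0 of 10.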

How the data were processed

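RNA of sorted lingual TG neurons was sequenced in 12 libraries, 3 in each of MN, MT, FN and FT, grouped by their labels alone. The authors prepared SMART-seq2 libraries, read single ends, aligned them to mm9 with TopHat2 and deposited whole, unnormalized HTSeq counts of reads per gene. The annotation, the strand setting and the versions of aligner and counter are not given in the sources used here, so reads of a gene and an antisense partner may be mixed. Rows without a gene name (76.3% to 88.82% of reads) were left out.

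CPM were computed from reads on genes, and RPKM from GENCODE M1 exon lengths (NCBIM37, the build mm9), which matched 21627 of 22609 symbols (95.7%). Counts were fitted with edgeR 4.0.16 (R 4.3.3) as 4 groups in 1 fit, with TMM, filterByExpr (minimum count 10, minimum total 15), the quasi-likelihood test and Benjamini-Hochberg adjustment over all genes. Comparisons between females and males did not use genes on the sex chromosomes. The fits were run on simulated counts for MT versus MN alone, and the outcome is not given here. Each gene was drawn by itself, so shifts that move many genes of a library together were not covered. The 10 members and all gene lists were chosen with earlier results of these data known. Named besides the members were some of the most abundant genes of several lists. Genes of the PDGF and Notch, contractile, pericyte and regulator lists that passed an adjusted p were also named. There were 0 of these in the edgeR fit of 12 libraries, so those of other fits are named with their fit. Others are named where the text says so. The 149 of 150 list genes found in the counts were used. Alternatives were DESeq2 1.42.0, its size factors (RLE) in edgeR, limma-voom (limma 3.58.1) with sample quality weights, 2 filters, a replicate block, only the 2 groups compared, 12 fits each without 1 library, 2 other call rules and, chosen after seeing the data, fits of 10, 9 and 5 libraries. Counting intervals and floors cover counting error only.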

Additional observations from a re-analysis of the deposited data

How the results depend on the processing

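Of the 1047 alternative values of single members, 970 kept their direction and their side of an adjusted p of 0.05, 73 reversed and 4 came to pass, all 4 in FN versus MN under limma-voom (Acta2, Tagln, Myh11 and Mylk). The number of members called was 0 in every comparison and alternative except FN versus MN, with 4 under limma-voom, 2 at an unadjusted p and 2 by the criteria of the study, and FT versus MT, with 1 at an unadjusted p. In MT versus MN the values in 5 male libraries were -0.10 for the median of the members, -0.10 for Des and -0.03 for Mylk. In FT versus FN the median was -0.10 under limma-voom, Acta2 was at 0.16 and Cspg4 at -0.06 over 10 libraries, and Tagln was at 0.04 under DESeq2, 0.04 with its size factors, 0.02 with the 2 groups alone and 0.06 over 9 libraries. There Myh11 was at -0.29 and -0.32 and Rgs5 at -0.12 and -0.02 under limma-voom and over 10 libraries, and Pdgfrb at 0.26 over 9. In FN versus MN the values under limma-voom, over 9 and over 10 libraries were 0.10, 0.04 and 0.03 for Rgs5, 0.10, 0.15 and 0.14 for Pdgfrb, -0.03, -0.11 and -0.12 for Abcc9, 0.29, 0.19 and 0.18 for Notch3, and -0.34, -0.39 and -0.40 for Kcnmb1. The sex difference in the tumor effect over 10 libraries was -0.02 for Pdgfrb and -0.01 for Des. The cause of these reversals was not tested. The fit of 5 male libraries did not test Cnn1, and the interaction term has no fit of 2 groups alone.

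Leaving out 1 library at a time turned the direction of 22 of 50 member values. In MT versus MN the ranges were -0.11 to 1.15 for Des, -0.03 to 0.82 for Mylk, -0.68 to 0.22 for Notch3, -0.38 to 0.04 for Pdgfrb and -0.07 to 0.82 for the median of the members. In FT versus FN they were -0.79 to 0.11 for Acta2, -0.23 to 1.04 for Cnn1, -0.30 to 0.51 for Myh11, -0.38 to 0.10 for Mylk, -0.42 to 0.17 for Pdgfrb, -0.22 to 0.49 for Rgs5, -0.31 to 0.31 for Tagln and -0.24 to 0.40 for the median. In FN versus MN they were -0.09 to 0.41 for Abcc9, -0.68 to 0.20 for Notch3, -0.25 to 0.17 for Pdgfrb, -0.65 to 0.05 for Rgs5 and -0.37 to 0.38 for Kcnmb1. In FT versus MT they were -0.06 to 0.98 for Acta2, -0.19 to 0.86 for Myh11, -0.14 to 0.71 for Mylk and -0.27 to 0.32 for Pdgfrb. For the sex difference in the tumor effect they were -0.45 to 0.80 for Des, -1.02 to 0.03 for Myh11, -0.25 to 0.34 for Pdgfrb and -0.58 to 0.17 for the median.

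The replicate numbers were checked for pairing. Of 18 same-numbered pairs of libraries 6 had correlated deviations over 0.1 (range -0.446 to 0.681), as had 13 of 36 other pairs (-0.732 to 0.707), and 5 of 12 libraries were closest to their own number, so the numbers were not taken to pair samples. With the replicate block 0 of 10 members were called in each comparison, and 1 direction turned, Tagln at 0.04 in FT versus FN.

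Each group held 3 pooled samples, and the biological coefficient of variation was 0.428 over 12 libraries and 0.151 over 9. Abcc9 and Cnn1 rested on few reads, at 2 to 35 and 0 to 34 counts a library, so that their folds carry the widest counting error of the 10 genes.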
